A study of Mus musculus with 2 samples.

Results

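The clustered protocadherins are cell-surface adhesion proteins of the cadherin family, best known from the nervous system, where each neuron uses its own combination of them as a surface identity. In the alpha and gamma clusters a row of large variable exons, each with its own promoter, is spliced to constant exons shared by the whole cluster, whereas every beta gene is a single-exon gene. Promoter choice in neurons is known to depend on CTCF, a DNA-binding protein that with cohesin holds chromatin loops together, and on enhancers that lie beyond the alpha genes and beyond the gamma genes. The last variable exons, called C-type, follow other rules and are broadly used in neurons.

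The genes were taken as all protein-coding genes of the GENCODE M21 annotation of mouse build mm10 on chromosome 18 whose symbol starts with Pcdha, Pcdhb or Pcdhg. This gave 57 of 21938 protein-coding genes: 12 alpha variable genes, 2 alpha C-type genes, 22 beta genes, 12 gamma A genes, 6 gamma B genes and 3 gamma C-type genes. All are read on the plus strand and lie at chr18:36930184-37841873, a stretch of 912 kb. The symbol Pcdha11 stands on 2 gene IDs, ENSMUSG00000007440 and ENSMUSG00000102206, and the RefSeq table gives the name Pcdha10 to ENSMUSG00000007440, which starts at 37005203. Pcdhgb8 is annotated as a polymorphic pseudogene and was not counted as a member.

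Accessible chromatin was mapped by DNase-seq, in which the nuclease DNase I cuts open DNA, in whole thymus, the organ where T cells mature. The libraries came from 2 female B6CASTF1/J mice, hybrids of the C57BL/6J and CAST strains, aged 25 days. They form 1 group with no treatment and no contrast, so values are given for each animal (replicate 1 and replicate 2) and no test between conditions was possible. The deposited measures read here were called peaks with a signal density per peak, bases with a false discovery rate (FDR) below 0.05 for the cut rate, and footprints, which are short stretches protected from cutting.

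Replicate 1 was the richer library throughout. It held 127552 peaks, 363775 footprints and 44.8 Mb of DNA with an FDR below 0.05, and replicate 2 held 67270 peaks, 203939 footprints and 23.2 Mb. The ratios between the libraries were 1.9 for peaks, 1.78 for footprints and 1.93 for FDR bases, and read depth is not given in the sources used here. Gene starts of the T-lineage marker list had a peak in 10 of 10 cases in both libraries. Of 10 neuron markers, 7 had a peak in replicate 1 and 5 in replicate 2, with no FDR base at Rbfox3 or Gap43 in either. Of 6 glia markers the counts were 3 and 2, of 8 thymic epithelium markers 3 and 2, of 8 stroma and endothelium markers 5 and 4, of 4 B-cell markers 1 and 0, and of 5 myeloid markers 2 and 2. In such bulk tissue, open chromatin in few cells and weak opening in many cells cannot be told apart.

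Most clustered protocadherin promoters carried no called peak and no base with an FDR below 0.05 in thymus. Signal weaker than that could not be seen in these values. A peak lay within 1 kb of the start (any overlap of at least 1 bp) in 15 of 57 genes (26.3%) in replicate 1 and in 6 (10.5%) in replicate 2, a mean of 10.5 ± 6.36 genes (SD, n = 2). Over all protein-coding genes the share was 61.7% in replicate 1 and 55.1% in replicate 2. Both libraries had a peak at 5 of the genes, namely Pcdhb1, Pcdhgb6, Pcdhgb7, Pcdhgc3 and Pcdhgc4. Another 10 had a peak in replicate 1 alone, 1 (Pcdhac1) had a peak in replicate 2 alone, and 41 had none in either animal.

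The per-base FDR, which needs no called peak, gave the same picture. At least 1 base with an FDR below 0.05 lay within 1 kb of 18 gene starts (31.6%) in replicate 1 and 7 (12.3%) in replicate 2, against 62.7% and 56.3% of all protein-coding genes. No such base was found at 39 of the 57 genes in either library. The genes' windows held 5918 FDR bases in replicate 1 and 1446 in replicate 2 (3682 ± 3162.2, SD, n = 2), a ratio of 4.09. The ratio of 1.93 for the whole genome is lower but is not limited to gene starts. The same windows summed over all protein-coding genes held 14948424 and 10261163 FDR bases, those of the Hox genes 5799 and 2356, and those of the keratin genes 800 and 356. The median of the clustered genes was 0 bases per gene in both libraries, against 587 and 284 bases for all other protein-coding genes. Footprints had their midpoint in the windows of 14 genes (24.6%) in replicate 1 and 6 (10.5%) in replicate 2, against 59.7% and 54.0% of all genes. There were 49 and 19 such footprints.

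**Figure D1:**
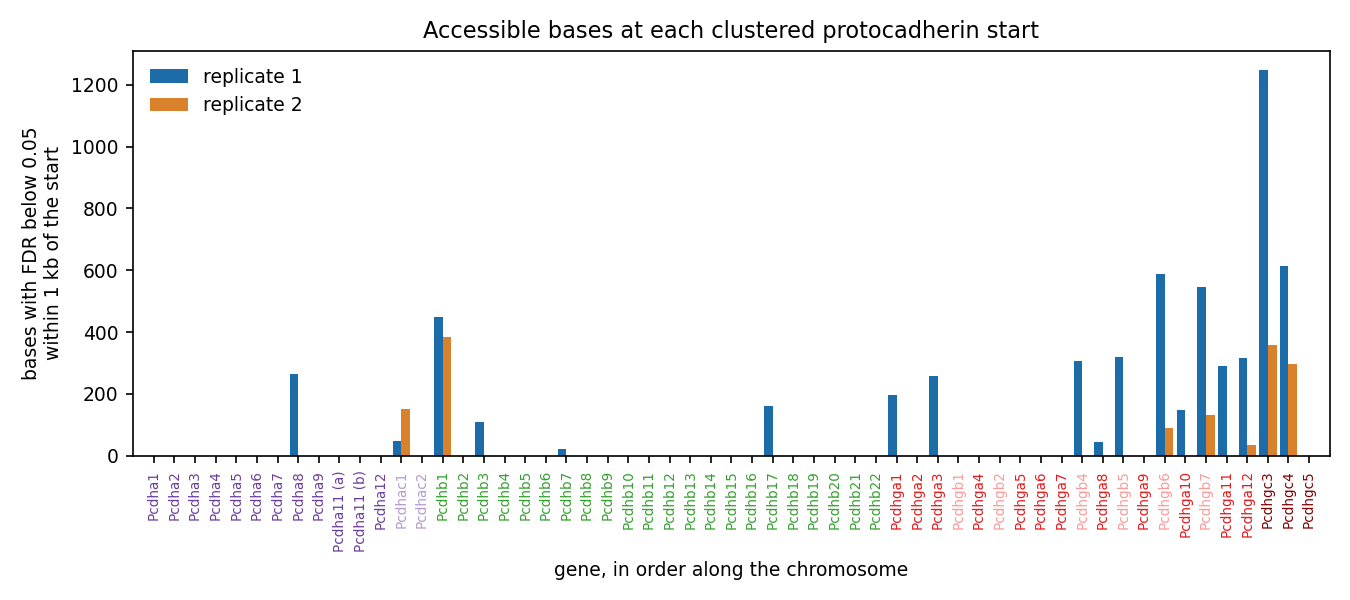
Bases with an FDR below 0.05 within 1 kb of each of the 57 gene starts, with genes in order along the chromosome and named in the colour of their subfamily; the bars are replicate 1 and replicate 2. ENSMUSG00000007440 and ENSMUSG00000102206 are shown as Pcdha11 (a) and (b). Pcdhgc3 has the tallest bars among gamma genes, with 1248 and 359 bases, and 39 genes have none in either library.

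The subfamilies differed in how many starts were open. Together the alpha and beta clusters had a peak at 4 of 36 starts (11.1%) in replicate 1 and 2 (5.56%) in replicate 2. The gamma cluster had a peak at 11 of 21 starts (52.4%) and at 4 (19.0%). No test was made of that split, which was drawn after the values were seen.

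Among the alpha variable genes, which encode the alternative extracellular parts of the alpha proteins, Pcdha8 alone had a peak, and only in replicate 1. Its density was 0.540, at the 35.8th percentile of the peaks of that library, and the window held 263 FDR bases in replicate 1 and 0 in replicate 2 (131.5 ± 186, SD, n = 2). The peak did not sit on the promoter: its midpoint lay 549 bp after the start, inside the variable exon. Only 29.4% of the 31-base words of that peak occur once in the mouse genome. The other 11 alpha variable genes, Pcdha1 and Pcdha2 among them, had 0 FDR bases within 1 kb in both libraries. A weak peak in replicate 1 (density 0.227, 7.69th percentile) lay 1406 bp after the Pcdha1 start, where 54.0% of the words were unique.

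The alpha C-type genes, whose promoters are used by many neurons, had little signal. Pcdhac1 had 48 FDR bases and no peak in replicate 1, and in replicate 2 it had 152 FDR bases and a peak of density 0.210 (4.44th percentile) centred 13 bp before its start (100 ± 73.5 bases, SD, n = 2). It was the only member with more FDR bases in replicate 2. Pcdhac2 had no peak and no FDR base in either library, although its promoter is rich in CpG dinucleotides.

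In the beta cluster, Pcdhb1 was the gene with signal in both animals. Its FDR bases numbered 447 in replicate 1 and 384 in replicate 2 (415.5 ± 44.5, SD, n = 2), a smaller difference than the 1.93-fold ratio of such bases over the genome. The peaks were faint, with densities of 0.312 (16.5th percentile) and 0.492 (22.8th percentile), and were centred 192 and 142 bp after the start, in the coding exon. They held 3 and 5 footprints.

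Pcdhb3 and Pcdhb17 had peaks in replicate 1 alone. Pcdhb3 had 108 FDR bases and a density of 0.227, and Pcdhb17 had 160 FDR bases and a density of 0.291, both with 0 bases in replicate 2. Pcdhb7 had 22 FDR bases in replicate 1 without a peak and 0 in replicate 2. The remaining 18 beta genes, such as Pcdhb10 and Pcdhb11, had no FDR base in either library. A median of 99.5% of the 31-base words within 1 kb of a beta start were unique in the genome, but only 14 of 22 starts reached 90% and the lowest had 78.0%. Pcdhb10 and Pcdhb11 were among the lower ones, at 86.8% and 80.2%.

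The gamma genes held most of the signal of the family. The window of Pcdhgc3, the first of the C-type genes of the cluster, had 1248 FDR bases in replicate 1 and 359 in replicate 2 (803.5 ± 629, SD, n = 2). Its densest peak had a density of 6.24 in replicate 1 (89.1st percentile) and 2.71 in replicate 2 (76.7th percentile), centred 14 and 24 bp before the start. This was the densest promoter peak of any member in both libraries. Replicate 1 had 2 further peaks in the variable exon of Pcdhgc3, with densities of 0.952 and 0.640, which replicate 2 lacked.

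Pcdhgc4, the C-type gene required in mice for the survival of many neurons, was open in both animals. It had 615 FDR bases in replicate 1 and 298 in replicate 2 (456.5 ± 224, SD, n = 2), and its densest peaks had densities of 2.68 (77.6th percentile) and 1.37 (62.1st percentile). These lay 301 and 281 bp after the start, in the variable exon. The neighbouring C-type gene Pcdhgc5 had no FDR base within 1 kb in either library, so adjacent C-type starts differed within each animal.

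Of the gamma B genes, which interleave with the gamma A genes, Pcdhgb6 and Pcdhgb7 had peaks in both animals. Pcdhgb6 had 587 FDR bases in replicate 1 and 89 in replicate 2 (338 ± 352, SD, n = 2), with densities of 3.71 (82.8th percentile) and 0.648 (35.3rd percentile), both centred 64 bp before the start. Pcdhgb7 had 545 and 131 FDR bases (338 ± 293, SD, n = 2), with densities of 2.31 (75.0th percentile) and 0.594 (31.3rd percentile). The called Pcdhgb7 peaks of the animals did not coincide, since replicate 1 was centred 40 bp before the start and replicate 2 lay 210 bp after it. At the replicate 2 peak, replicate 1 had no called peak but 141 FDR bases with a lowest FDR of 8.2e-10. Replicate 2 had 126 FDR bases there with a lowest FDR of 0.018. At the replicate 1 peak, replicate 2 had 0 FDR bases.

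Pcdhgb4 and Pcdhgb5 were open in replicate 1 alone, with 305 and 319 FDR bases, densities of 1.36 and 1.07, and 0 bases in replicate 2. Pcdhgb1 and Pcdhgb2 had no FDR base in either library. The pseudogene Pcdhgb8, which lies between Pcdhga11 and Pcdhga12, had 3 peaks and 816 FDR bases within 1 kb in replicate 1, the densest of 2.33 (75.1st percentile), and nothing in replicate 2.

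No gamma A gene had a peak in replicate 2. In replicate 1, Pcdhga11 (density 2.02, 291 FDR bases) and Pcdhga12 (density 2.43, 315 FDR bases) had the densest peaks of this subfamily, at the 72.4th and 75.9th percentiles. Pcdhga3 (density 0.635, 256 bases), Pcdhga1 (0.471, 197 bases) and Pcdhga10 (0.365, 148 bases) were fainter. Pcdhga12 kept 33 FDR bases in replicate 2, and the 4 other peak-bearing gamma A genes had 0 there. Pcdhga8 had 44 FDR bases and no peak in replicate 1, and Pcdhga2 and Pcdhga4 had none in either animal.

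Open starts were more frequent toward the constant exons of the gamma cluster. From Pcdhga1 to Pcdhga7, 2 of 9 starts had a peak in replicate 1 and 0 in replicate 2. From Pcdhgb4 to Pcdhgc5, 9 of 12 starts had a peak in replicate 1 and 4 in replicate 2. This division, too, was made after the values were seen.

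**Figure D2:**
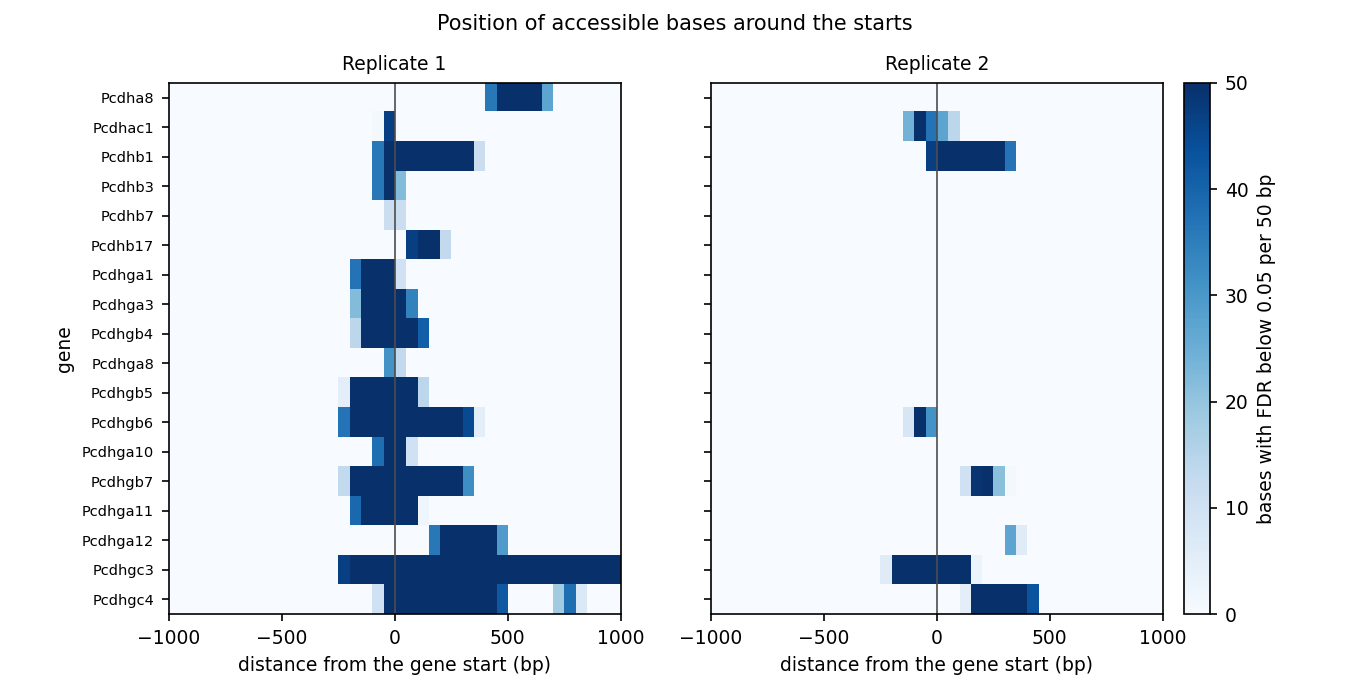
FDR bases per 50 bp from 1000 bp before to 1000 bp after the start, for the 18 genes with any such base, in cluster order, in replicate 1 (left) and replicate 2 (right); darker bins hold more bases. Gamma A and gamma B signal sits mainly across the start, whereas Pcdha8 and Pcdhgc4 have theirs in the exon.

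The signal at these starts did not extend far upstream. Every FDR base before a start lay within the nearest 250 bp: 2024 of 5918 bases (34.2%) in replicate 1 and 453 of 1446 (31.3%) in replicate 2. Among gamma genes with a peak, the midpoint of the densest one lay before the start in 9 of 11 genes in replicate 1 and in 2 of 4 in replicate 2. Pcdhga12 and Pcdhgc4 were the exceptions in replicate 1, at 330 and 301 bp after the start. The lowest FDR at a gamma start was 9.8e-40 in replicate 1 and 4e-14 in replicate 2, both at Pcdhgc3, and 1.1e-38 in replicate 1 but 0.019 in replicate 2 at Pcdhgb6.

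For comparison, a peak was found at 7 of 12 starts of the non-clustered protocadherins (58.3%) in replicate 1 and 5 (41.7%) in replicate 2. These related genes are not part of the alpha, beta and gamma arrays. Pcdh1, Pcdh7, Pcdh8, Pcdh9 and Pcdh17 were open in both libraries, and Pcdh10 and Pcdh19 in replicate 1 alone. Among other gene arrays, the Hox genes, which pattern the body axis, had a peak at 14 of 39 starts (35.9%) and 7 (17.9%). The keratin genes, which encode epithelial filaments, had one at 6 of 49 (12.2%) and 1 (2.04%). The shares for the clustered protocadherins fell between those of the Hox and keratin arrays in both libraries.

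Genes known to regulate the clusters or to work with their proteins were mostly open. Of 34 such genes on a list that includes Ctcf, Rad21, Smchd1 and Setdb1, 31 (91.2%) had a peak in replicate 1 and 30 (88.2%) in replicate 2. Over all protein-coding genes the shares were 61.7% and 55.1%. Those with none in either library were Trim28, a corepressor, Dnmt1, the maintenance DNA methyltransferase, and Stag1, a cohesin subunit. The window there is set on the outermost annotated start of each gene. A peak at another start of these genes was not counted, so the values do not show that all their promoters lacked one.

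**Figure D3:**
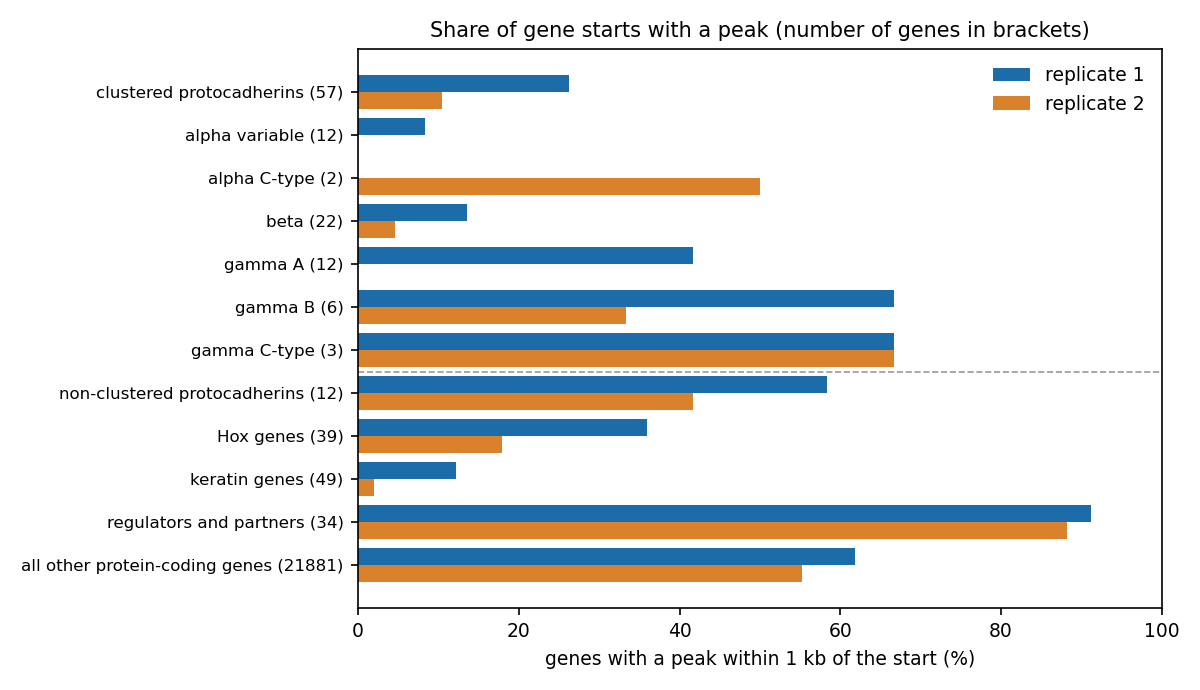
Percent of gene starts with a peak within 1 kb, for the clustered protocadherins and their 6 subfamilies (above the dashed line) and for 4 other gene sets and all other protein-coding genes (below it), in replicate 1 and replicate 2; the number of genes is in brackets. The clustered set reaches 26.3% and 10.5%, and its gamma B and gamma C-type genes reach the level of all other genes in replicate 1.

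Few of these promoters belong to the CpG-rich class that is open in most tissues. Within 500 bp of the start, 2 of 57 genes (3.51%) had at least 55% G and C with a CpG observed over expected ratio of at least 0.6, against 38.4% of other genes. They were Pcdhgc3, open in both animals, and Pcdhac2, open in neither. Of all CpG-rich promoters, 94.4% had a peak in replicate 1 and 88.4% in replicate 2. Of the 34 listed regulators and partners, 24 (70.6%) belonged to this class, and of these 24 had a peak in replicate 1 and 23 in replicate 2. The part of the class in the high share of peaks on that list was not tested. The median GC share was 44.9% for the clustered genes and 54.8% for all other genes, whereas the median CpG ratio was 0.564 and 0.552.

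The CpG ratio was not low in every subfamily. Its median was 0.684 in alpha variable, 0.588 in gamma A and 0.65 in gamma B genes, and 0.378 in beta genes. Alpha variable promoters, with the highest of these medians, had no peak in 12 of 12 cases in replicate 2 and in 11 in replicate 1.

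Sister promoters share sequence, and this can limit how many short reads can be placed. Word uniqueness was counted here, and reads themselves were not examined. Within 1 kb of the start, a median of 93.4% of 31-base words were unique in the genome, with a range of 73.2 to 100% over the members, against a median of 99.4% at Hox starts. The median was 88.5% for alpha variable, 97.4% for gamma A and 88.9% for gamma B genes. The open Pcdhgb6 and Pcdhgb7 peaks in replicate 1 had 71.8% and 62.3% unique words, whereas every word of the Pcdhgc3 and Pcdhgc4 peaks was unique. The part of mappability in the low counts at alpha starts was not tested.

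CTCF is known to bind both the promoter and the coding exon of alpha variable genes, and pairs these sites with enhancer sites of the opposite orientation. A match to the CTCF consensus, on either strand and with at most 1 mismatch over 12 bases, lay within 1 kb of 13 of 57 starts (22.8%), close to the 20.6% of all protein-coding genes. Within 1 kb, those matches were concentrated in the alpha variable genes. There, 9 of 12 genes had a match, all 9 on the strand of transcription, at 461 to 586 bp after the start with a median of 565 bp, which is inside the variable exon. Matches without a mismatch lay within 1 kb of 6 of 57 starts, all of them alpha variable genes (10.5% of members), against 1.72% of all protein-coding genes. Of 22 beta starts, 1 had a match within 1 kb, but further matches lay beyond that window. The stretch of the beta genes held 22 matches against the genes and 4 along them. None was in a peak or under a footprint in either library. For example, matches without a mismatch lay 2395 bp after the Pcdhb3 start and 2417 bp after the Pcdhb10 start.

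In the 1 kb after the start, 10 members (17.5%) had a match along the direction of transcription, against 4.99% of all protein-coding genes. The tenth was Pcdhb8, at 333 bp. Reverse matches lay within 1 kb of the starts of Pcdhac1, Pcdhgb1 and Pcdhgb7, and no gamma A start had a match within 1 kb. Since the consensus is a description of letters, a match does not show binding and its absence does not show a lack of it.

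The exonic matches of the alpha genes were almost all without a peak or FDR base in thymus. Of the 9 genes with one, 8 had neither a peak nor an FDR base within 1 kb in either library. The exception was Pcdha8, whose match at 557 bp was covered by the replicate 1 peak centred at 549 bp and by a footprint, with no peak or FDR base in replicate 2. Only 29.4% of the 31-base words of that peak were unique in the genome. Word uniqueness at the other matches was measured only over the 1 kb windows. Whether reads could be placed at these exonic matches was not tested.

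Along the whole stretch from 50 kb before to 200 kb after the clusters (1161.7 kb), 59 peaks lay in replicate 1 and 29 in replicate 2 (44 ± 21.2, SD, n = 2). That is 5.08 and 2.5 peaks per 100 kb, near the 4.68 and 2.47 of the genome. The peaks were spread unevenly. The alpha variable exons had 0.885 and 0.443 peaks per 100 kb, the beta genes 1.16 and 0.385, the gamma variable exons 11.0 and 3.06, and the gamma constant exons 23.7 and 17.8. In the 200 kb after the clusters the values were 13.5 and 8.5, and the 50 kb before Pcdha1 held no peak.

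**Figure D4:**
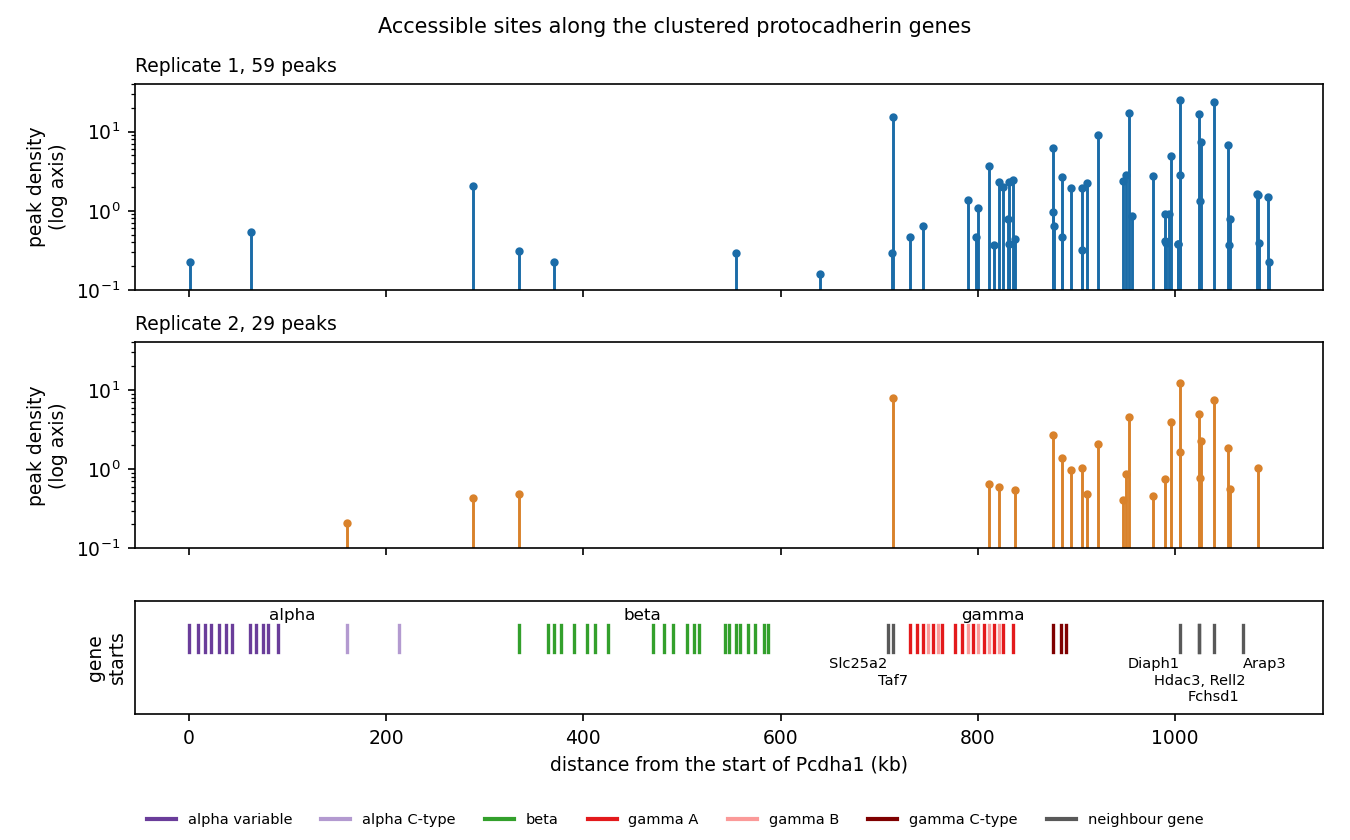
Density of each accessible site (log axis) against distance from the start of Pcdha1 in kb, for replicate 1 (top) and replicate 2 (middle), with gene starts below coloured by subfamily and neighbouring genes in grey. The alpha and beta clusters are nearly empty, and sites gather from the gamma genes onward.

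Merged over the animals, the stretch held 61 sites, of which 26 were found in both libraries, 33 in replicate 1 alone and 2 in replicate 2 alone. These counts refer to called peaks, and at the last 2 sites replicate 1 had 48 and 141 FDR bases without a peak. Of the replicate 1 peaks, 26 of 59 (44.1%) overlapped a replicate 2 peak, and of the replicate 2 peaks, 27 of 29 (93.1%) overlapped a replicate 1 peak. The sites found in both had a median replicate 1 density at the 78.2nd percentile, and those found in replicate 1 alone at the 30.6th. So sites without a counterpart were mostly among the fainter peaks.

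A lone site stood between the alpha and beta clusters. At 37218262 to 37218460, 30.7 kb after the last alpha constant exon, a peak had a density of 2.04 (72.6th percentile) in replicate 1 and 0.426 (16.6th percentile) in replicate 2, with 5 footprints and 1. It contained a CTCF match against the direction of the genes, which a footprint and a peak covered in replicate 1 alone. The alpha enhancer named HS5-1 is known from this side of the alpha genes, but its coordinates are not in the sources used here, and the site was not matched to it.

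The constant exons of the gamma cluster, shared by all gamma transcripts, carried 3 sites found in both libraries. At the first constant exon (37824961 to 37825140) the densities were 1.93 in replicate 1 and 0.966 in replicate 2. An intronic site at 37835681 to 37835880 had 1.92 and 1.03, and a site in the last exon at 37841361 to 37841560 had 2.23 and 0.492. The last of these held a CTCF match against the direction of the genes, under a footprint in both libraries. In replicate 2 that site was weak, at the 22.8th percentile with 29 FDR bases and a lowest FDR of 0.033. Of its 31-base words, 81.2% were unique in the genome.

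Beyond the gamma genes, several dense sites away from gene starts lay in introns of Diaph1, the gene of an actin-nucleating formin, which is read toward the cluster. A site 10.4 kb after the cluster end (37852221 to 37852400) had densities of 9.19 (92.6th percentile) in replicate 1 and 2.07 (71.7th percentile) in replicate 2. It held 2 CTCF matches against the direction of the genes, each under a footprint in both libraries. A site 41.8 kb after the cluster (37883561 to 37883720) reached 17.4 (96.8th percentile) and 4.58 (84.8th percentile), above every protocadherin promoter in both animals. A CTCF match without mismatch lay 8 bp beyond that peak, again against the direction of the genes and under a footprint in both libraries.

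A further dense site lay 142.6 kb after the cluster in an intron of Arap3, with densities of 6.69 (89.8th percentile) in replicate 1 and 1.87 (69.6th percentile) in replicate 2. It held a CTCF match without mismatch along the direction of the genes, under a footprint in both libraries, so its orientation was opposite to that of the matches at the Diaph1 intron sites.

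Fainter sites at 35.6, 38.5 and 66.4 kb after the cluster were found in both animals, with densities of 2.39, 2.80 and 2.78 in replicate 1 and 0.408, 0.870 and 0.462 in replicate 2. A site at 84.2 kb had 4.90 and 3.95, the most even of these pairs. A site at 45.3 kb, with a CTCF match without mismatch, was found in replicate 1 alone (0.852). Enhancers of the beta and gamma genes are known from this side, and again no site was matched to a named element.

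**Figure D5:**
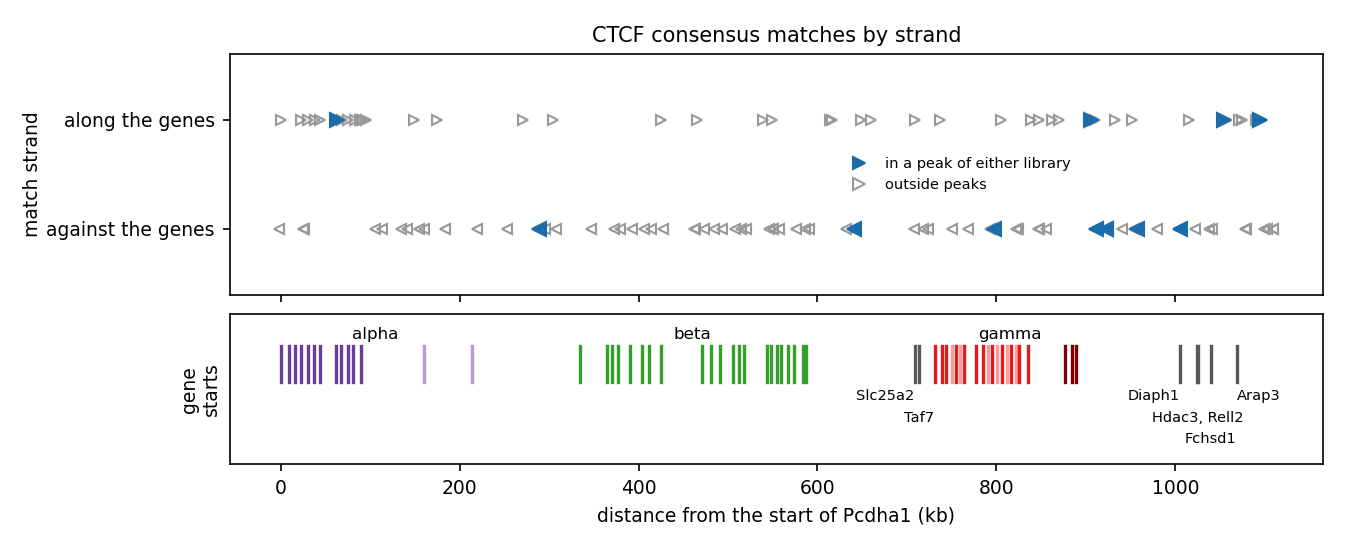
Matches to the CTCF consensus by strand (along the genes above, against them below) against distance from the start of Pcdha1 in kb; filled symbols lie in a peak of either library and unfilled symbols outside peaks, with gene starts underneath. The matches along the alpha variable genes are unfilled but for Pcdha8, and beyond the gamma genes filled symbols stand on both strands.

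Over the whole stretch there were 113 CTCF matches, 43 along the genes and 70 against them. A peak of either library covered 12 of them, 4 along the genes and 8 against. Footprints of both libraries covered 6 matches, 1 along the genes and 5 against, and 101 matches lay outside peaks. The stretch also holds promoters of neighbours, and 1 of those matches belongs to the Diaph1 start.

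The neighbouring genes gave promoters for scale. Taf7, a subunit of the general transcription factor TFIID that lies between the beta and gamma clusters, had a peak density of 15.5 in replicate 1 and 7.98 in replicate 2, above the densest promoter peak of any member. Diaph1 had 24.8 and 12.4, Hdac3 and Rell2 shared a peak of 16.6 and 5.01, and Fchsd1 had 23.6 and 7.49. Slc25a2, a mitochondrial carrier gene beside Taf7, and Arap3 had no promoter peak in either library. The read-through models Gm42416, Gm37013 and Gm37388 had no peak either, with 13 FDR bases at Gm37013 in replicate 2.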

How the data were processed

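DNase-seq of thymus from 2 mice was analysed as 1 group (n = 2) without tests. Per the deposited notes, each library was processed alone from its filtered mm10 alignment, without pooling. The signal density per peak is the authors' value, its scaling is not stated, and percentiles were taken within 1 library. The deposited q-value (FDR) is given per run of bases and only below 0.05. For footprints, whose other deposited column holds a constant, positions alone were used. Names of the callers were not given in the sources used here. Of the 2 deposited peak lists per library, the longer was used.

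Windows were 1 kb on either side of the outermost 5′ end of each GENCODE M21 protein-coding gene. Member windows did not overlap, as starts were at least 4131 bp apart. Sequence context came from the mm10 genome. The second name of the duplicated symbol came from the RefSeq gene table. Word uniqueness was counted over both strands. The members, gene lists and motif were chosen with earlier results of these data known. All members were counted. Those named had a promoter peak or were the extremes in FDR bases of their subfamily, with equal values taken by symbol. Pcdha2, Pcdhb7, Pcdhga8 and Pcdhb8 fall outside that rule and were named after their values were seen. The named neighbours are those whose start lies in the stretch. Python 3.11.15, numpy 2.4.6, pandas 2.3.3, numba 0.67.0 and matplotlib 3.10.9 were used, and interval counts and motif search were tested on simulated data. Alternatives covered the peak list, its length, the window, the start, the FDR threshold, the overlap, the motif mismatches and each library left out. Sequences are not printed.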

Additional observations from a re-analysis of the deposited data

How the results depend on the processing

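Of 47 alternatives over 9 counts, 32 stayed within 1.5 times the reported value. Values here are means of both libraries. The alpha and beta genes with a peak numbered 3 and fell to 1.5 with the shorter deposited list and to 1 with the replicate 1 list reduced by density to 67270 peaks, where they were 0 in replicate 1 and 2 in replicate 2, while gamma genes were 8 and 4. The split by cluster and the count of Pcdhgb8 were chosen after seeing the data. An FDR threshold of 0.001 left 7.5 genes and 2100.5 bases. Without flanks the stretch held 22 peaks. CTCF matches lay at 6 genes without mismatch, 45 with 2 mismatches (78.9%, against 85.1% of all genes) and 3 within 500 bp, which leaves out most exonic matches. Leaving out each library gave 6 to 15 genes with a peak, 4 to 11 gamma genes, 2 to 4 alpha and beta genes, 7 to 18 genes and 1446 to 5918 bases by FDR, 29 to 59 peaks in the stretch, and 19 to 49 footprints. The lower value is replicate 2 throughout. Replicate 2 also had fewer peaks over the whole genome, and weaker detection and a difference between the animals cannot be told apart here. Reads of the CAST allele placed on the mm10 sequence were not examined. No paired analysis was possible because the libraries form 1 group.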
